A study of Mus musculus with 12 samples.

Results

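The mitochondrial oxidative phosphorylation subunits are the nuclear-encoded proteins of the respiratory chain and the ATP synthase. They were taken by gene symbol from the platform annotation, among probe sets that name 1 gene: the numbered subunits of the Nduf a, b, c, s and v series, Sdha to Sdhd, every Uqcr gene, the Cox4 to Cox8 genes and every Atp5 gene. This gave 81 of the 18193 genes on the array. By the prefix of the symbol alone, 35 were assigned to complex I, 4 to complex II, 8 to complex III, 17 to complex IV and 17 to complex V. Where several probe sets name a gene, the one with the highest mean log2 intensity over the 12 arrays stood for it. Genes entered by name, and the probe set was picked by a mean over all arrays that takes no account of the groups, so neither step used a difference between groups.

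RNA was measured on Affymetrix arrays in CD4+ T cells sorted from the spleens of mice aged 6 weeks, in 4 groups of 3 arrays. NOD mice develop autoimmune diabetes, and B6g7 mice (B6.H2g7) are B6 mice that carry the class II MHC haplotype H2g7 of NOD, so that all groups share this MHC. In each strain the study sorted regulatory T cells (Treg, CD4+CD25+), which restrain other T cells, and conventional T cells (Tconv, CD4+CD25-), and it asked how the Treg to Tconv ratio of expression compares between the strains. Each array took RNA pooled from 3 mice, and the series text calls the pools of a population independent. Cells were enriched by magnetic beads for CD25 or its absence and then sorted in a pair of passes without CD8a, CD11b, CD69 and B220. Per the labels, Foxp3 protein marked 94%, 96% and 96% of cells in the B6g7 Treg sorts, and 89%, 95% and 95% in those from NOD. Foxp3 and Il2ra, the defining Treg genes on the arrays, were higher in Treg by 5.32 and 5.34 on the log2 scale in B6g7 and by 5.14 and 5.07 in NOD. Il2ra encodes the CD25 used for the sort. Among the markers of B cells, CD8 T cells, myeloid cells, NK cells, erythroid cells and platelets, Fcgr3 was lower in B6g7 Treg than in B6g7 Tconv (-0.89, limma adjusted p = 4.2e-04). In NOD it differed by -0.45 (adjusted p = 0.0507) and no marker was called, but the average over strains was called (-0.67, adjusted p = 1.3e-04). The T cell genes Cd3e, Cd3g, Cd4 and Thy1 differed by -0.61 to -0.36 in B6g7 and -0.61 to 0.15 in NOD, none called. In the average over strains, 1 of these 4 was called lower in Treg (adjusted p = 0.0262). Between strains, the NK cell gene Nkg7 was higher in NOD Treg (0.65, adjusted p = 0.0330) and the Treg gene Ikzf2 was higher in NOD Tconv (0.76, adjusted p = 0.0492). Cd8a and Cd8b1 differed by -0.33 and -0.26 in NOD Treg, with an unadjusted p under 0.05 and neither called. The part of such cells in the differences below, between populations or strains, was not tested. Each array measured a bulk sample, in which fewer cells of a type and less RNA per cell cannot be told apart.

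Complex I (NADH dehydrogenase) and complex II (succinate dehydrogenase) pass electrons to ubiquinone, complex III hands them to cytochrome c, and complex IV reduces oxygen. The proton gradient built on the way drives complex V, the ATP synthase. In resting T cells this route supplies most ATP, and Treg are known to rely on mitochondrial respiration more than activated effector T cells do. Many of these genes are known targets of the transcription factors NRF1, GABPA and YY1, which couple nuclear genes to mitochondrial content.

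Promoters of 5 members are printed as the upstream context of the genes that the comparisons below turn on. They are Ndufs5 and Ndufa12, which differed between strains, and Uqcrfs1 and Uqcrh, which fell in NOD Treg with the replicate number as a block. The last is Uqcr11, whose average Treg to Tconv difference was the highest of the members. Cox5a also fell in that block fit and is not printed. Each runs 5′ to 3′ on the strand of the gene, from 250 bases before to 50 bases after its start, from RefSeq on GRCm38.p6. The positions are chr4:123718137-123718436 (minus strand) for Ndufs5, chr10:94198785-94199084 (plus strand) for Ndufa12, chr13:30545267-30545566 (minus strand) for Uqcrfs1, chr4:116075021-116075320 (minus strand) for Uqcrh and chr10:80406772-80407071 (minus strand) for Uqcr11. Capitals mark a match to CCGGAA (the core of the GABPA motif), GCGCATG (a repeat unit of the NRF1 motif) or AAGATGG (the core of the YY1 motif) on either strand.
Ndufs5: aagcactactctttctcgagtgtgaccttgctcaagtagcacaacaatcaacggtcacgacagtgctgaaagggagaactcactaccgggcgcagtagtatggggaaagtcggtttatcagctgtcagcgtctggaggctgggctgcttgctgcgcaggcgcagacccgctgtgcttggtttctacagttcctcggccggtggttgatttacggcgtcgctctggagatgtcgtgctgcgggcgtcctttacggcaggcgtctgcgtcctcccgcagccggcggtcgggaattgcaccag
Ndufa12: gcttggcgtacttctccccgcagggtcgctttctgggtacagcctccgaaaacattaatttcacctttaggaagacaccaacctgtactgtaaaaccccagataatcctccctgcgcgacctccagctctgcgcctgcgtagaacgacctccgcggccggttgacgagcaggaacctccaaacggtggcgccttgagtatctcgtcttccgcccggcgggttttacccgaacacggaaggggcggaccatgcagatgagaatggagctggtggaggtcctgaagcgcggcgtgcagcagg
Uqcrfs1: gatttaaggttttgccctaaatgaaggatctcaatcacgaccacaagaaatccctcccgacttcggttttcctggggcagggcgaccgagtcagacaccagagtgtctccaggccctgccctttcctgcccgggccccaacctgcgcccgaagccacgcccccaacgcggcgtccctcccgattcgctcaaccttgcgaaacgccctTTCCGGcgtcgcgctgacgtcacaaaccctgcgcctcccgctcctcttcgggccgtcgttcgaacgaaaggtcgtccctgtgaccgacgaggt
Uqcrh: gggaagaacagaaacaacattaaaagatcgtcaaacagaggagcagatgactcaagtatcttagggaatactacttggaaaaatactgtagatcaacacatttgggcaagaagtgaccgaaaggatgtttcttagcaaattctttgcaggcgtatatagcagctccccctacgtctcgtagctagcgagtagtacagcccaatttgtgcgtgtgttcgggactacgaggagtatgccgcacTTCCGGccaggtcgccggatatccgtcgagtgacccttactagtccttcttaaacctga
Uqcr11: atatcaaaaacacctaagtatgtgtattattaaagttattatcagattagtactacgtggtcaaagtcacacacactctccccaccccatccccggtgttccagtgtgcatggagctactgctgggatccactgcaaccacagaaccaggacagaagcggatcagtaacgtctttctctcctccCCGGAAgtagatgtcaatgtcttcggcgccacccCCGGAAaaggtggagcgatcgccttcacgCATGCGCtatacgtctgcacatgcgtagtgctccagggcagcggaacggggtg

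The windows of Uqcrfs1 and Uqcrh held the GABPA core once each on the opposite strand, and that of Uqcr11 held the GABPA core and the NRF1 letters. Those of Ndufs5 and Ndufa12 held none of the 3 strings, and neither did that of Cox5a, which fell in the same block fit as Uqcrfs1 and Uqcrh. The RefSeq table matched 66 of the 81 members, with 71 promoters. The GABPA core was in 38.03% of these and in 14.9% of all 32851 promoters of the same length of 300 bases. The NRF1 letters were in 16.9% of the members' promoters and in 3.909% of all, and the YY1 core in 14.08% and 6.338%. A match describes the letters only.

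The members were mostly bright on the array. Of the 81 probe sets, 71 had a mean log2 intensity of 8 or more, and Cox7a1 and Cox7b2 lay under 5.28, the 25th percentile of all probe set means, below which a level is called dim here. Means ran from 3.97 for Cox7b2 to 13.39 for Atp5a1, the alpha subunit of the ATP synthase. Probe sets differ in how strongly they bind, so these intensities do not order the transcripts by abundance. The lowest and highest means within a complex belonged to Ndufb1 (5.45) and Ndufa1 (12.26) in complex I, Sdhb (8.66) and Sdha (11.64) in complex II, Uqcr10 (8.13) and Uqcrb (13.23) in complex III, Cox7b2 and Cox7a2l (12.08) in complex IV, and Atp5l (8.84) and Atp5a1 in complex V. Averaged over the 81 members, the B6g7 arrays had a log2 intensity of 9.92 ± 0.08 (SD, n = 3) for Tconv and 9.97 ± 0.04 for Treg, and the NOD arrays 9.98 ± 0.06 for Tconv and 9.93 ± 0.09 for Treg. The single arrays lay between 9.83 and 10.05, and the 4 groups overlapped.

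The first comparison asked whether the subunits differ between Treg and Tconv. In B6g7, 0 of 81 members passed limma's test at an adjusted p under 0.05, against 4.55% of all genes, and 5 members had an unadjusted p under 0.05, against 13.6% of all genes. In NOD, 0 of 81 passed, against 4.38% of all genes, and 10 had an unadjusted p under 0.05, against 13.3%. Averaged over both strains, 0 of 81 passed, against 7.5% of all genes, and 5 had an unadjusted p under 0.05, against 16.5%. The median member difference, Treg minus Tconv, was 0.05 on the log2 scale in B6g7 (0.00 over all genes) and -0.06 in NOD (-0.02 over all genes). The NOD median changed sign to 0.01 without NOD Treg array 1 and to 0.03 after a further quantile normalization.

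The sizes were small and fairly well bounded. In B6g7 the differences ran from -0.31 (Ndufc1) to 0.37 (Atp5g2), and in NOD from -0.53 (Uqcrh) to 0.36 (Cox6b1). The 95% interval of the difference lay within 2-fold in either direction for 81 of 81 members in B6g7 and for 79 in NOD, and within 1.5-fold for 71 and 60. The average over strains lay between -0.27 (Uqcrfs1) and 0.27 (Uqcr11), and its interval stayed within 1.5-fold for 79 members. With 3 arrays a group, smaller differences could go uncalled, the more so for genes of wide spread. In each strain the standard error had a median of 0.14 and ran from 0.08 to 0.39.

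**Figure D1:**
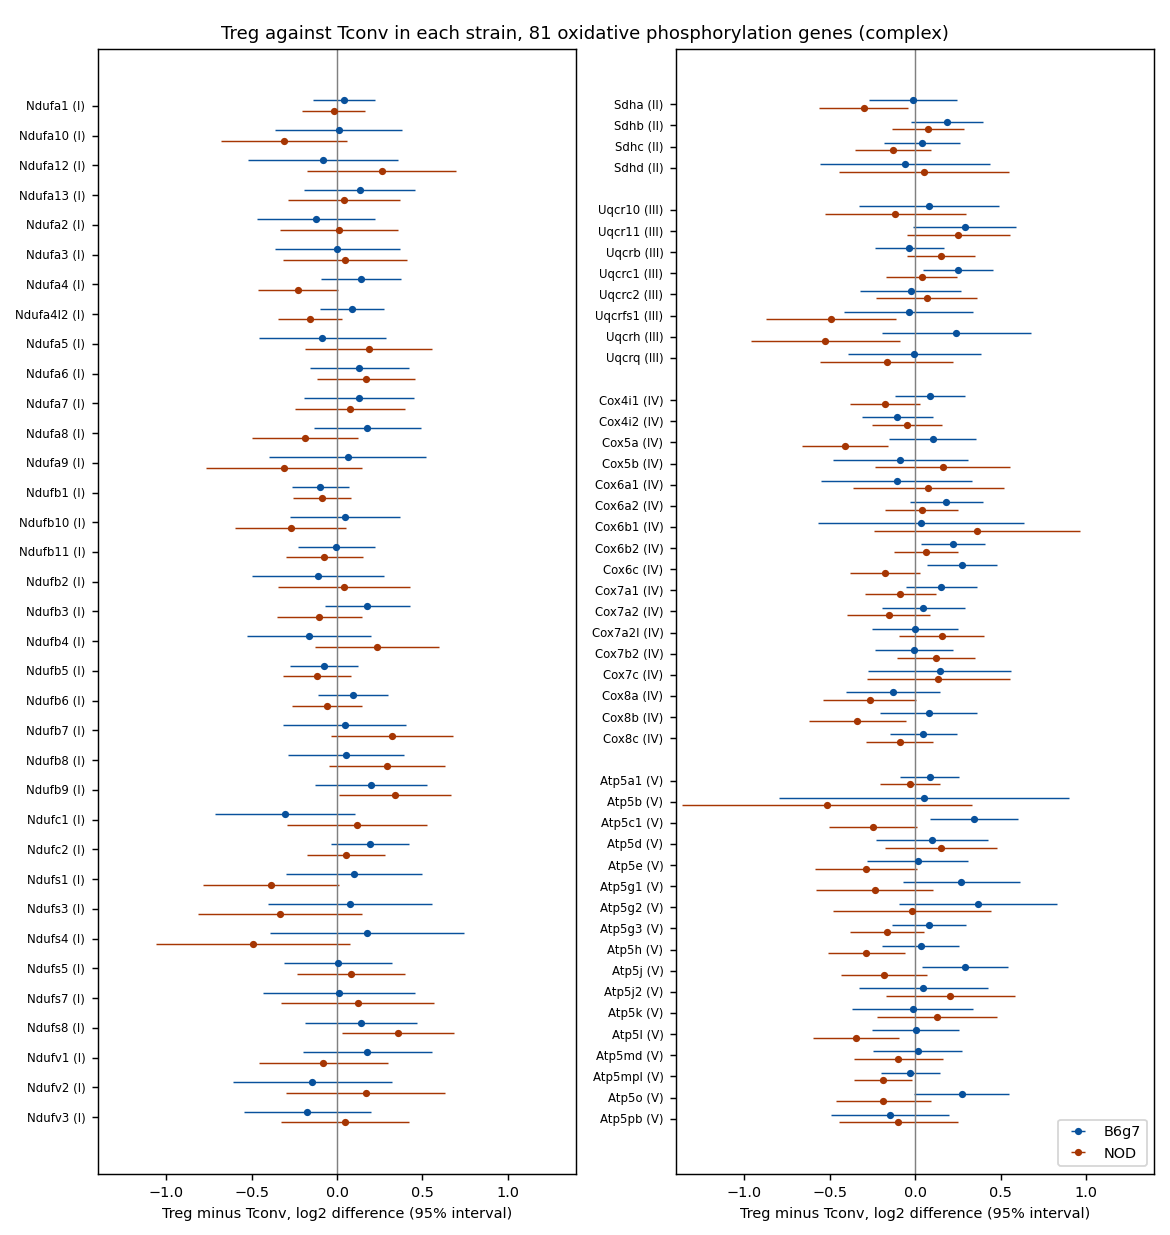
Treg minus Tconv log2 difference of each of the 81 genes (complex in brackets) in B6g7 (blue) and NOD (brown); points are limma estimates from 3 arrays a group and bars their 95% intervals. No gene passed the adjusted threshold in either strain, and the points stay between -0.53 and 0.37.

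The signs differed between the strains. In B6g7, 55 members had a positive and 26 a negative difference, and in NOD 36 were positive and 45 negative. Over all 18193 genes, 9148 were positive in B6g7 and 7960 in NOD, so the NOD split of the members was close to that of all genes. After a further quantile normalization the members split 49 and 32 in B6g7 and 41 and 40 in NOD, so the uneven split in NOD rests on the scaling as deposited. In all, 30 of 81 members had the same sign in both strains, against 10329 of 18193 genes. These comparisons share no arrays. Across the 81 members the differences in the 2 strains had Pearson's r = -0.17 and Spearman's rho = -0.17, against r = 0.73 and rho = 0.30 across all genes. The genes are not independent replicates, and the values are given as a description. In B6g7 the Treg arrays lay wholly above the Tconv arrays for 7 members and wholly below for 1, against 9.91% and 6.73% of all genes. In NOD they lay wholly above for 1 member, the dim Cox7b2, and wholly below for 15, against 8.28% and 11.1%.

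The labels state no pairing of arrays, but in NOD the deviations of Treg and Tconv arrays with the same replicate number correlated. This pairing was read from the same data that were then tested. In B6g7 the arrays numbered 2 did not correlate in this way, and the block covered them too. With the replicate number as a block over all 12 arrays, 3 of 81 members fell in NOD Treg and 0 rose. In that fit 6.81% of all genes passed, and none of the 3 passed without the block. The 3 are Uqcrfs1, Cox5a and Uqcrh. Uqcrfs1, the Rieske iron-sulfur protein of complex III, read 10.47, 9.97 and 9.96 in NOD Tconv and 9.87, 9.53 and 9.53 in NOD Treg. Each Treg array was below every Tconv array, and the difference was -0.49 ± 0.17 (SE), with adjusted p = 0.239 without and 0.00841 with the block. In B6g7 it read 10.22, 10.08 and 9.71 in Tconv and 10.20, 9.86 and 9.83 in Treg, which overlapped, with a difference of -0.04.

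Cox5a, a nuclear-encoded subunit of cytochrome c oxidase, read 11.48, 11.12 and 11.28 in NOD Tconv and 10.96, 10.71 and 10.98 in NOD Treg. The groups did not overlap, and the difference of -0.41 ± 0.12 had adjusted p = 0.0986 without and 0.0176 with the block. The other 2 probe sets of Cox5a differed by -0.29 and -0.27. In B6g7 Cox5a read 11.10, 10.97 and 10.95 in Tconv and 11.17, 10.95 and 11.22 in Treg, a difference of 0.10.

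Uqcrh, the hinge protein that links cytochrome c1 to cytochrome c, read 12.56, 11.96 and 11.94 in NOD Tconv and 11.95, 11.33 and 11.60 in NOD Treg. Array 1 was the highest in both groups, and Treg array 1 lay just above Tconv array 3, so the groups overlapped. The difference of -0.53 ± 0.20 had adjusted p = 0.303 without and 0.0175 with the block, and the second probe set of the gene differed by -0.35. In B6g7 the values were 12.06, 11.95 and 11.57 in Tconv and 12.33, 12.02 and 11.95 in Treg, a difference of 0.24 in the other direction.

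Complex I held 35 of the members, and its median difference was 0.05 in B6g7 and 0.04 in NOD. The core subunits, which carry the flavin and the iron-sulfur clusters or bind ubiquinone, were measured for 6 genes, Ndufs1, Ndufs3, Ndufs7, Ndufs8, Ndufv1 and Ndufv2. Their differences ran from -0.15 to 0.18 in B6g7 and from -0.39 to 0.36 in NOD. Ndufs8, a core iron-sulfur subunit, read 9.23, 9.33 and 9.64 in NOD Tconv and 9.43, 9.94 and 9.89 in NOD Treg. The groups overlapped, and the difference was 0.36 ± 0.15 (adjusted p = 0.398). Ndufs1, the largest core subunit, read 10.91, 10.40 and 10.52 in NOD Tconv and 10.46, 9.98 and 10.24 in NOD Treg, a difference of -0.39 ± 0.18 in the other direction (adjusted p = 0.491). The core subunits of one complex thus had both signs within NOD.

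Among the accessory subunits, which surround the core and are needed for assembly and stability, Ndufb9 differed by 0.20 in B6g7 and 0.34 in NOD. Ndufc1 had the most negative difference of all members in B6g7, with 11.78, 11.77 and 11.66 in Tconv and 11.38, 11.62 and 11.29 in Treg. These arrays did not overlap, and the difference was -0.31 ± 0.19 (adjusted p = 0.625). In NOD it was 0.12, with 1 low Tconv array at 10.98 beside 11.70 and 11.85. Ndufs4, an accessory subunit whose loss causes a Leigh-like disease in mice, differed by 0.17 ± 0.26 in B6g7 and by -0.49 ± 0.26 in NOD. Ndufv3 and Ndufb4, also accessory, differed by -0.17 each in B6g7 and by 0.05 and 0.23 in NOD, with a lowest adjusted p of 0.760, for Ndufb4 in NOD.

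Complex II is also an enzyme of the tricarboxylic acid cycle. Sdha, its flavoprotein, read 12.02, 11.88 and 11.82 in NOD Tconv and 11.79, 11.46 and 11.57 in NOD Treg, and the arrays did not overlap. The difference was -0.30 ± 0.12 (adjusted p = 0.332), and in B6g7 it was -0.01. Sdhb, the iron-sulfur subunit, differed by 0.18 in B6g7 and 0.08 in NOD. The membrane anchors Sdhc and Sdhd differed by 0.04 and -0.06 in B6g7 and by -0.13 and 0.05 in NOD.

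In complex III the 8 members split evenly by sign in each strain. Uqcr11, a small subunit of the complex, had the highest average difference of all members and the same sign in both strains. In B6g7 it read 8.36, 8.09 and 8.08 in Tconv and 8.59, 8.58 and 8.23 in Treg. In NOD it read 8.33, 8.09 and 8.42 in Tconv and 8.35, 8.50 and 8.73 in Treg. The arrays overlapped in both strains, and the average difference was 0.27 ± 0.10 (adjusted p = 0.176). Uqcrb, a ubiquinone-binding subunit, differed by -0.03 in B6g7 and 0.15 in NOD. Uqcr10 differed by 0.08 and -0.12.

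In complex IV the lowest adjusted p in B6g7 belonged to Cox6c, a membrane subunit of the oxidase, with 11.19, 11.12 and 11.08 in Tconv and 11.29, 11.40 and 11.52 in Treg. The arrays did not overlap, and the difference was 0.27 ± 0.09 (adjusted p = 0.201). In NOD the values were 11.53, 11.36 and 11.49 in Tconv and 11.36, 11.15 and 11.34 in Treg, lower in Treg and separate only beyond the decimals shown. The difference was -0.18 ± 0.09 (adjusted p = 0.584). Cox6b1, which sits between the monomers of the oxidase dimer, had the highest difference of NOD, 0.36 ± 0.28, over a wide spread. It read 11.32, 11.82 and 12.14 in NOD Tconv and 11.57, 12.40 and 12.39 in NOD Treg. Cox8a, the smallest subunit, differed by -0.13 in B6g7 and -0.27 in NOD, and the average of -0.20 ± 0.09 had adjusted p = 0.331. Cox7a2l, which joins complexes III and IV into supercomplexes, differed by -0.00 in B6g7 and 0.15 in NOD.

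Complex V had the most uneven signs. In B6g7, 14 of its 17 members had a positive difference, with a median of 0.05, and in NOD 14 of 17 had a negative difference, with a median of -0.18. Of all 18193 genes, 9148 were positive in B6g7 and 10233 negative in NOD. With the further quantile normalization 11 of 17 were positive in B6g7 (median 0.03) and 12 of 17 negative in NOD (median -0.10). Atp5c1, the gamma subunit that turns inside the catalytic head, read 11.55, 11.36 and 11.37 in B6g7 Tconv and 11.75, 11.63 and 11.91 in B6g7 Treg, and 11.93, 11.58 and 11.61 in NOD Tconv and 11.54, 11.31 and 11.53 in NOD Treg. The B6g7 Treg arrays lay above their Tconv arrays and the NOD Treg arrays below theirs. The differences were 0.34 ± 0.12 (adjusted p = 0.212) and -0.25 ± 0.12 (adjusted p = 0.492). Atp5j, coupling factor 6 of the stalk, had the same order, with 0.29 in B6g7 and -0.18 in NOD. Atp5g2, a gene for the membrane ring subunit c, had the highest difference of B6g7, 0.37 ± 0.21, of which 1 Treg array at 10.43 stood above the others at 9.46 and 9.75.

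Atp5b, the catalytic beta subunit, had the widest spread of the members, with a pooled within-group SD of 0.58. In B6g7 it read 10.65, 10.78 and 9.93 in Tconv and 11.37, 10.29 and 9.87 in Treg. In NOD it read 11.27, 10.62 and 10.31 in Tconv and 10.86, 9.83 and 9.96 in Treg, and the groups overlapped in both strains. The differences of 0.05 and -0.52 both had a standard error of 0.39. Atp5a1, the alpha subunit, was among the steadiest, with all 12 arrays between 13.28 and 13.53. Atp5l, a membrane subunit that takes part in ATP synthase dimers, differed by 0.00 in B6g7 and -0.35 ± 0.12 in NOD (adjusted p = 0.202).

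The tissue-restricted isoforms replace the common subunit in muscle, heart, lung or testis. All 8 were measured: Ndufa4l2, Cox4i2, Cox6a2, Cox6b2, Cox7a1, Cox7b2, Cox8b and Cox8c. Cox7a1 (heart and muscle) and Cox7b2 (testis) were dim, Cox6b2 (testis) was near that level with group means of 5.18 to 5.50, and Cox8c (testis) read 8.62 to 8.72, with no detection call behind any of these. In B6g7 their differences ran from -0.10 (Cox4i2) to 0.22 (Cox6b2) and in NOD from -0.34 (Cox8b) to 0.12 (Cox7b2), and none passed. Cox8b, the muscle isoform of the smallest subunit, read 6.67, 6.39 and 6.57 in NOD Tconv and 6.22, 6.18 and 6.20 in NOD Treg, which did not overlap (adjusted p = 0.311).

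The next comparison tested whether the Treg to Tconv difference itself differs between the strains. Of the 81 members 0 passed limma's test, against 0.11% of all genes, and 10 had an unadjusted p under 0.05, against 4.97% of all genes. The lowest adjusted p was 0.792, for Atp5c1, whose difference between strains was -0.59 ± 0.17. The median over the members was -0.14 (NOD minus B6g7), against -0.03 over all genes, and over complex V it was -0.30, with 13 of 17 members negative. Of all 18193 genes, 10163 were negative. With the further quantile normalization these medians were -0.04 over the members and -0.20 over complex V, with 11 of 17 negative. The most negative values belonged to Uqcrh (-0.77 ± 0.28) and Ndufs4 (-0.67 ± 0.37), and the most positive to Ndufc1 (0.42 ± 0.27), Ndufb4 (0.40 ± 0.24) and Ndufa12 (0.34 ± 0.28). This comparison had the least precision: the 95% interval stayed within 1.5-fold for 34 of 81 members. The sign counts of the strains therefore rest on differences of which none was shown, 1 gene at a time, to differ between the strains.

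NOD and B6g7 were then compared within each population, and here single members did differ. In Tconv 1 member was higher and 1 lower in NOD, against 3.05% of all genes called (1.6% higher and 1.45% lower). In Treg 2 were higher and 1 lower, against 3.33% (1.84% higher and 1.49% lower). At an unadjusted p under 0.05 there were 16 and 9 members, against 11.1% and 10.9% of all genes. The share called, 2 of 81 and 3 of 81, was close to that of all genes. The called members are Ndufs5, lower in NOD, and Uqcrq and Ndufa12, higher in NOD. The median over the members was 0.08 in Tconv and -0.06 in Treg, against 0.03 and 0.00 over all genes. After the further quantile normalization it was 0.02 in Tconv, with 42 of 81 members positive in place of 49, and -0.05 in Treg, against 0.01 and 0.00 over all genes. Before that step 10449 of 18193 genes were positive in Tconv.

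**Figure D2:**
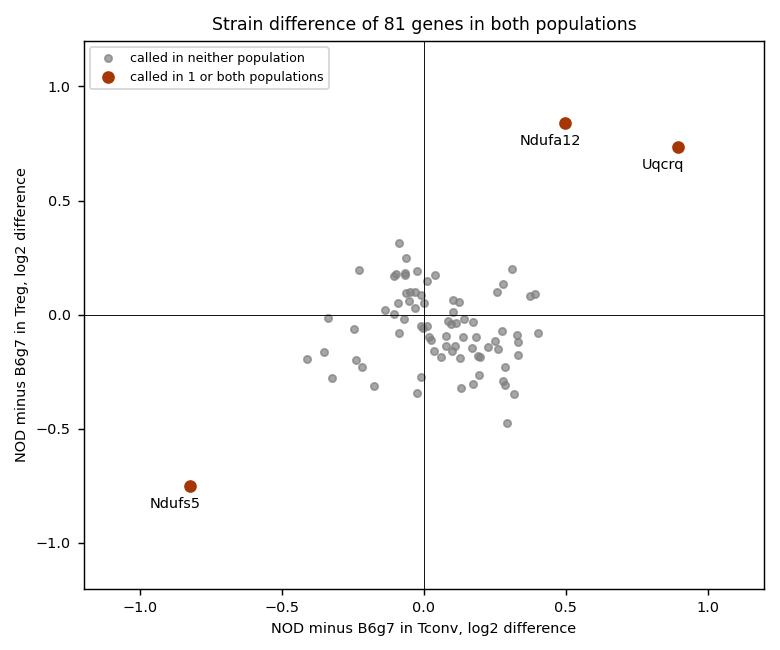
NOD minus B6g7 log2 difference of each of the 81 genes in Tconv (horizontal axis) and in Treg (vertical axis); each point is 1 gene and the 3 named points passed the threshold in 1 or both populations. Ndufs5 (-0.82 and -0.75), Uqcrq (0.89 and 0.73) and Ndufa12 (0.50 and 0.84) stand apart from the other 78 genes.

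Ndufs5, an accessory subunit of complex I on the side of the intermembrane space, read 7.07, 6.75 and 6.62 in Tconv and 7.05, 6.56 and 6.85 in Treg of B6g7. In NOD mice the values were 5.99, 5.84 and 6.12 in Tconv and 5.95, 6.19 and 6.07 in Treg. Every NOD array lay below every B6g7 array. Ndufs5 was 1.77-fold lower in NOD Tconv (log2 difference -0.82 ± 0.14, limma adjusted p = 0.00572) and 1.68-fold lower in NOD Treg (-0.75 ± 0.14, adjusted p = 0.0109). Both calls held in all 12 fits that each left out 1 array. The call in Treg did not hold without the 4 arrays numbered 1, where the difference was -0.58 (adjusted p = 0.0825). A second probe set, which also names the pseudogene Ndufs5-ps, differed by -0.06 in Tconv and 0.03 in Treg, so the probe sets for this gene disagreed.

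Uqcrq, a small subunit of complex III that binds ubiquinone, read 8.94, 8.38 and 8.54 in Tconv and 8.77, 8.66 and 8.42 in Treg of B6g7. In NOD mice the values were 9.66, 9.25 and 9.64 in Tconv and 9.02, 9.53 and 9.50 in Treg. No NOD array overlapped the B6g7 arrays. Uqcrq was 1.86-fold higher in NOD Tconv (0.89 ± 0.18, adjusted p = 0.0145) and 1.66-fold higher in NOD Treg (0.73 ± 0.18, adjusted p = 0.0447). Among its other 3 probe sets, 1 was also higher in NOD, by 0.51 in Tconv (adjusted p = 0.00446) and 0.37 in Treg (adjusted p = 0.0391), and 2 were not called. Averaged over all its probe sets, Uqcrq differed by 0.36 in Tconv and 0.34 in Treg (adjusted p = 0.0194 and 0.0234). The call in Tconv was lost without B6g7 Tconv array 2 or 3 or NOD Tconv array 1 or 3, with adjusted p up to 0.0795. The call in Treg held in 4 of the 12 fits that left out 1 array, those without B6g7 Tconv array 1 or 2, NOD Tconv array 2 or NOD Treg array 1, and adjusted p reached 0.194 in the others.

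Ndufa12, an accessory subunit of the matrix arm of complex I, read 11.10, 10.85 and 11.17 in Tconv and 10.64, 11.22 and 11.002 in Treg of B6g7. In NOD mice the values were 11.28, 11.68 and 11.63 in Tconv and 11.32, 12.04 and 12.02 in Treg. The NOD arrays lay above the B6g7 arrays in both populations. The difference in Treg was 0.84 ± 0.20, or 1.79-fold (adjusted p = 0.0408), and that in Tconv 0.50 ± 0.20 (adjusted p = 0.366). In Tconv it was called with the actin control gap as a covariate (0.60, adjusted p = 0.00507), without the 4 arrays numbered 1 (0.65, adjusted p = 0.0366) and with array weights (0.64, adjusted p = 0.0399). The difference between the populations was not called (0.34 ± 0.28, adjusted p = 0.962). A second bright probe set gave 1.05 in Treg (adjusted p = 0.00726) and 0.69 in Tconv (adjusted p = 0.0989), and a further one 0.59 and 0.56, neither called. The call in Treg held in 3 of the 12 fits that left out 1 array, those without NOD Tconv array 1, B6g7 Treg array 2 or NOD Treg array 1, and adjusted p reached 0.192 in the others. It was also lost after the further quantile normalization (0.89, adjusted p = 0.0667) and with only the Treg arrays in the fit (adjusted p = 0.154). The suffix of the representing probe set marks probes that can also bind other transcripts.

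**Figure D3:**
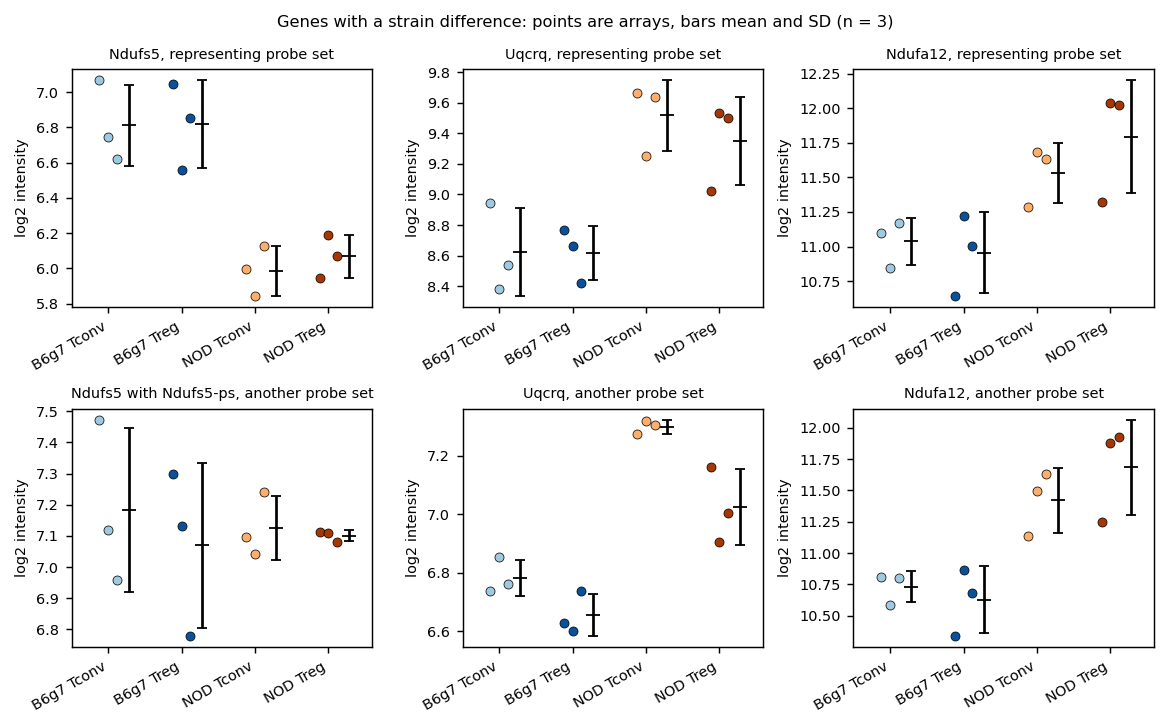
Log2 intensity of Ndufs5, Uqcrq and Ndufa12 on each array by group (points), with the mean and SD of 3 arrays (bars); the upper row shows the probe set that represents the gene and the lower row another of its probe sets. NOD arrays are separate from B6g7 arrays in the upper row and for the other probe sets of Uqcrq and Ndufa12, and overlap them for the probe set that names Ndufs5 with Ndufs5-ps.

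Deviations of NOD and B6g7 Treg arrays with the same replicate number also correlated. With the replicate number as a block, the same 3 members were called and Uqcrh was lower in NOD Treg (-0.47, adjusted p = 0.0343, against 0.402 without the block). In that fit 4.92% of all genes were called. Uqcrh had read 12.33, 12.02 and 11.95 in B6g7 Treg and 11.95, 11.33 and 11.60 in NOD Treg. In Tconv its difference was 0.29 ± 0.20 in the other direction.

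Other members with large strain differences did not pass. Uqcrb read 13.29, 13.47 and 13.37 in B6g7 Tconv and 12.93, 13.15 and 13.00 in NOD Tconv, which did not overlap, with -0.35 ± 0.09 (adjusted p = 0.0729). Ndufv3 differed by -0.41 ± 0.17 in Tconv (adjusted p = 0.388) and Ndufs1 by 0.40 ± 0.18 (adjusted p = 0.467). In Treg, Ndufs4 differed by -0.35 ± 0.26 and Ndufb4 by 0.31 ± 0.17 (adjusted p = 0.814 and 0.606). Complex V had 14 of 17 members higher in NOD Tconv and 13 of 17 lower in NOD Treg, with medians of 0.14 and -0.10, and 12 higher and 10 lower with the further quantile normalization (medians 0.06 and -0.06). Of all 18193 genes, 10449 were higher in NOD Tconv and 9039 lower in NOD Treg as deposited. The signs of complex V come from the same 4 group means as the Treg to Tconv differences above and are no separate observation. Over all members the arrays did not overlap, NOD higher, for 14 in Tconv and 4 in Treg, against 11.5% and 7.22% of all genes, and NOD lower for 4 and 9, against 6.19% and 6.74%.

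A gene's probe sets did not always tell the same story. Of the 81 members, 33 had 1 probe set naming them alone and 48 had more, with 83 further probe sets. Of the 83, limma called 1 between Treg and Tconv in B6g7, 3 between strains in Tconv and 6 between strains in Treg, while 3.37%, 2.96% and 3.26% of all probe sets were called. Some lay beside a representing probe set that was not called. A dimmer probe set of Uqcr10 was lower in NOD, with log2 differences of -1.10 in Tconv and -1.02 in Treg, while the representing probe set differed by 0.04 and -0.16. A dimmer probe set of Atp5g2 was higher in NOD by 0.85 in Tconv and 0.69 in Treg, against 0.20 and -0.19. For Ndufc2, an accessory subunit of complex I, 2 further probe sets were lower in NOD Treg, at -0.86 and -0.79, and the representing one differed by -0.31 (adjusted p = 0.201). Averaged over all its probe sets, Ndufc2 was lower in NOD Treg, at -0.53 (adjusted p = 0.00348). Between Treg and Tconv, 1 further probe set was called, of Ndufs4 in B6g7, at -0.52 (adjusted p = 0.0316), where the representing one differed by 0.17. These probe sets were singled out after their values were seen. For them and for the called members, sequence differences between the strains under the probes were not tested.

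Arrays with the same replicate number shared deviations, and the members moved with them. Replicate 1 was the highest array in all 4 groups for 8 members, 9.88% of them against 6.08% of all genes, namely Atp5j, Atp5o, Ndufa9, Ndufs1, Ndufs3, Ndufv1, Uqcrfs1 and Uqcrh. It was the lowest in all 4 groups for 2, Cox4i2 and Uqcrc2, or 2.47% against 6.89% of all genes. Ndufs3, a core subunit of complex I, lay 0.47 higher on replicate 1 than on the others, averaged over the groups, and Cox6b1 0.59 lower, as a log2 difference of -0.59. Actin control probe sets at the 3' end read 2.66 to 4.70 above those at the 5' end on the log2 scale, a gap that widens when labelled RNA is short. The lowest gap within a group was that of replicate 1 in both NOD groups (2.97 for Tconv and 3.29 for Treg) and in B6g7 Treg (2.66), but not in B6g7 Tconv (3.84 against 3.67 for replicate 2). With this gap as a covariate the members called between Treg and Tconv stayed at 0 in B6g7, in NOD and in the average, while 6.98%, 6.35% and 11.2% of all genes were called. Between strains, that fit also called Ndufa12 in Tconv (0.60, adjusted p = 0.00507) and Ndufc2 in Treg (-0.36, adjusted p = 0.0256), beside the members called without it. The median pooled within-group SD was 0.19 over the members, 0.15 over all genes and 0.18 over genes with a mean of at least 8. The SD of the 4 group means exceeded the within-group SD for 21 of 81 members.

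**Figure D4:**
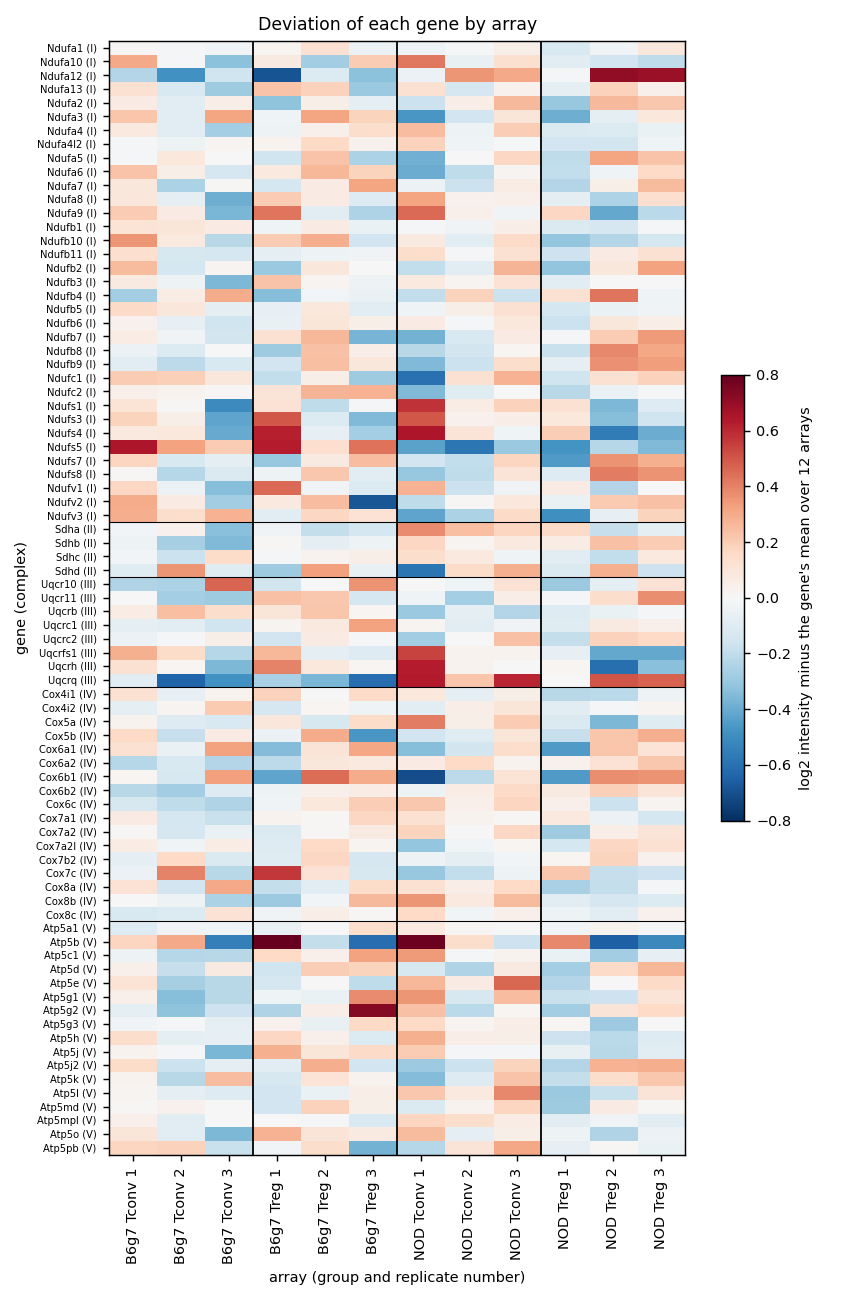
Log2 intensity of each of the 81 genes on each of the 12 arrays minus the gene's own mean over all arrays (red above, blue below, scale limited to 0.8 either way), with genes ordered by complex and arrays by group and replicate number. The column of replicate 1 stands apart from the other columns within a group for genes such as Ndufs3, Uqcrfs1 and Uqcrh, while Ndufs5 and Uqcrq split by strain.

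Genes that work with the subunits were taken as further lists. Averaged over the strains, the assembly factors held 1 gene higher and 2 lower in Treg of 42, the electron carriers and ATP synthase partners 1 higher of 11 (a list that also holds the member Atp5md), the tricarboxylic acid cycle with pyruvate dehydrogenase 1 lower of 16 and the regulators of mitochondrial biogenesis 2 lower of 18. Fatty acid oxidation held 1 higher and 1 lower of 13, the antioxidant enzymes 1 higher of 6, the mitochondrial ribosomal proteins 3 lower of 76, and the carriers and import proteins 0 of 18 called by limma, with 3 at an unadjusted p under 0.05. All genes gave 4.46% higher and 3.03% lower.

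Partners of complexes II and V differed between Treg and Tconv. Sdhaf1, which helps insert the iron-sulfur clusters of complex II, read 7.73, 7.69 and 7.61 in B6g7 Tconv and 8.71, 8.74 and 8.67 in B6g7 Treg, and 7.74, 7.40 and 7.72 in NOD Tconv and 8.55, 8.56 and 8.69 in NOD Treg. It was higher in every Treg array, by 1.03 in B6g7 and 0.98 in NOD (average 1.01 ± 0.07, adjusted p = 1.16e-06). The catalytic subunits of its complex, Sdha and Sdhb, had averages of -0.16 and 0.13 and were not called. Atpif1, the inhibitor of ATP hydrolysis by the ATP synthase, read 9.52, 9.59 and 9.11 in B6g7 Tconv and 10.64, 10.61 and 10.31 in B6g7 Treg, and 9.73, 9.49 and 9.45 in NOD Tconv and 10.42, 10.09 and 10.17 in NOD Treg. It was higher in every Treg array, by 1.12 in B6g7 and 0.67 in NOD (average 0.89 ± 0.10, adjusted p = 1.04e-04), while 0 of the 17 ATP synthase subunits was called. Over the alternative fits the average difference of Atpif1 ran from 0.46 to 0.95 and stayed called.

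Idh2, the mitochondrial NADP-dependent isocitrate dehydrogenase, went the other way. It read 8.44, 8.40 and 8.18 in B6g7 Tconv and 7.71, 7.51 and 7.52 in B6g7 Treg, and 8.47, 8.24 and 8.36 in NOD Tconv and 7.60, 7.50 and 7.56 in NOD Treg. Every Treg array was below every Tconv array, and the average difference was -0.78 ± 0.07 (adjusted p = 1.31e-05). Cox10, which makes the heme A precursor of complex IV, fell by 0.44 in Treg on average (adjusted p = 0.00263), and Uqcc3, an assembly factor of complex III, by 0.38 (adjusted p = 0.0260). The coactivators of mitochondrial genes Pprc1 and Ppargc1b fell by 0.30 and 0.24 (adjusted p = 0.0372 and 0.0463). The ribosomal proteins Mrps28 and Mrps18b fell by 0.48 each. Acadm, the medium-chain acyl-CoA dehydrogenase, fell by 0.39 (adjusted p = 0.0154), and Gpx4, which reduces lipid peroxides, rose by 0.32 (adjusted p = 0.00919). The calls of Pprc1 and Ppargc1b held in 2 and 1 of the 12 fits that left out 1 array, with adjusted p up to 0.105 and 0.128. Those of Cox10 and Gpx4 were lost when all probe sets of a gene were averaged (adjusted p = 0.143 and 0.0680), and that of Acadm without the 4 arrays numbered 1 (0.0557).

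Among the partners, the representing probe sets of Acadl and Suclg2 had larger strain differences than that of any subunit. Only the representing probe set of each partner was read here, and whether the strains differ in sequence under the probes was not tested. Acadl, the long-chain acyl-CoA dehydrogenase, read 9.03, 9.11 and 8.56 in Tconv and 9.22, 8.95 and 8.62 in Treg of B6g7. In NOD mice the values were 6.40, 6.35 and 6.54 in Tconv and 7.39, 7.30 and 7.43 in Treg. It was lower in NOD by log2 differences of -2.47 in Tconv and -1.56 in Treg. Acadl also differed between Treg and Tconv in NOD (0.95, adjusted p = 0.00419) and not in B6g7 (0.03), but the difference between these was not called (0.91 ± 0.23, adjusted p = 0.483). Suclg2, the GTP-specific subunit of succinate-CoA ligase, which acts just before complex II in the cycle, was lower in NOD, at -1.32 in Tconv and -1.59 in Treg. Ttc19, an assembly factor of complex III, was higher in NOD, at 0.67 and 0.79. The assembly factor Atpaf1 (complex V) was higher in NOD Tconv (0.78), and Timmdc1 (complex I) in NOD Treg (0.78). In Tconv and in Treg alike, 2 of 42 assembly factors were called, each higher in NOD. This share of 4.76% compares with 3.05% of all genes in Tconv and 3.33% in Treg.

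**Figure D5:**
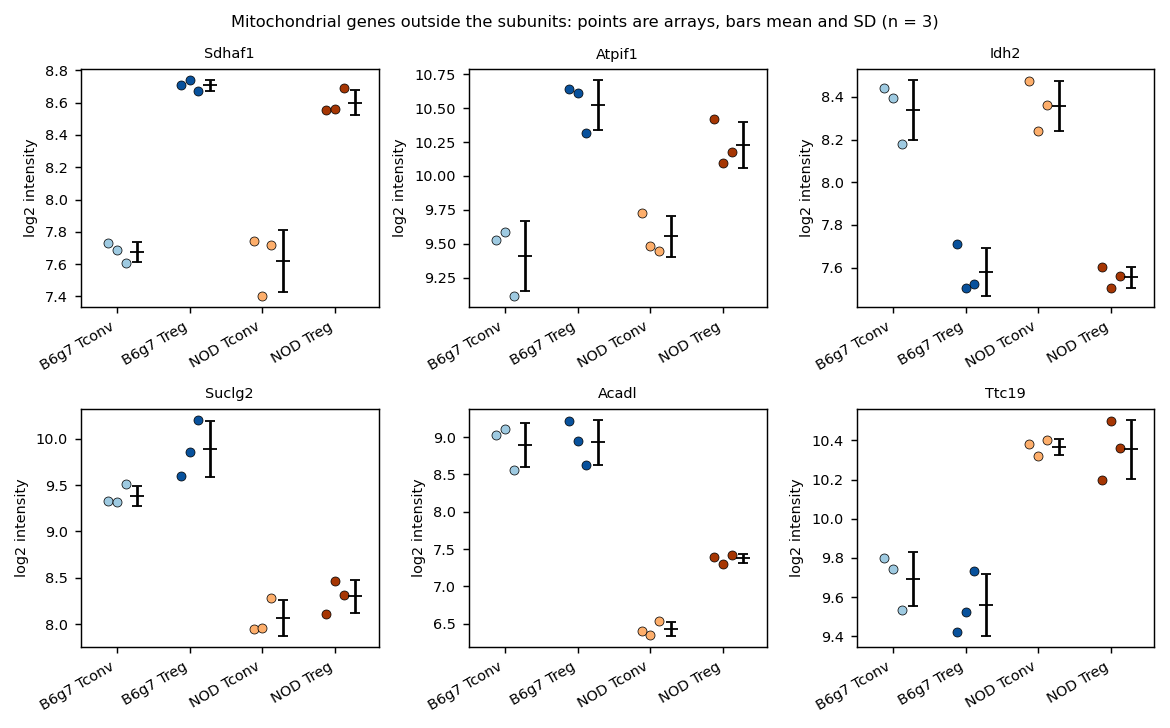
Log2 intensity of 6 genes that work with the subunits on each array by group (points), with the mean and SD of 3 arrays (bars). Sdhaf1 and Atpif1 are higher and Idh2 lower in every Treg array, while Suclg2 and Acadl are lower and Ttc19 higher in every NOD array.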

How the data were processed

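The authors deposited 1 table of RMA intensities on a linear scale, 1 column for each of 12 Affymetrix mouse arrays (RMA per the submitters' processing notes, with the software version not given in the sources used here). Values were taken to log2, and 64 control probe sets were left out. A linear model with limma 3.58.1 (R 4.3.3) was fitted to all 4 groups and 45037 probe sets, with Benjamini-Hochberg adjustment over all of them in each of 6 comparisons. A difference was called at an adjusted p under 0.05. Errors are standard errors and intervals cover 95%. The platform annotation names 1 gene for 34945 probe sets, several for 932 and none for 9160. The fit was tried on simulated data with independent noise and differences planted in 1 group. Those data held no deviations shared by arrays of the same replicate number, so the trial does not cover them. The number of arrays limits the precision: an exact permutation test of 3 arrays against 3 cannot go below p = 0.1.

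The members and all gene lists were chosen with earlier results of these data known. The rule for naming took every called member, the 3 highest and 3 lowest differences of each comparison, the brightest and dimmest member of each complex, every tissue-restricted isoform and, of each other list, the 2 genes of smallest p in the average Treg to Tconv comparison. Further genes named were chosen after their values were seen, for their role or their p.

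The labels state no pairing of arrays, and the replicate block was a single fit over all 12 arrays. Replicate numbers were taken to pair arrays where, in these same data, the deviations from the group means correlated over 0.1 for every number. The correlations were 0.56, 0.31 and 0.40 for NOD Treg and Tconv and 0.67, 0.34 and 0.30 for NOD and B6g7 Treg, which met this. They were 0.52, -0.08 and 0.50 for B6g7 Treg and Tconv and 0.44, -0.04 and 0.20 for NOD and B6g7 Tconv, which did not. Alternatives were the replicate block, leaving out each array or the 4 arrays numbered 1, array weights, fitting only the groups compared, a filter on dim probe sets, quantile normalization, the actin gap as a covariate, an intensity trend with a robust prior, averaging all probe sets of a gene, and averaging linear intensities.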

Additional observations from a re-analysis of the deposited data

How the results depend on the processing

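Under these alternatives no called difference of a gene taken by the naming rule turned its sign. Genes of the further lists were followed this way only in the average over strains. Their strain differences, such as those of Acadl and Suclg2, and those of the markers were not followed. With the replicate block, 3 members were called in NOD Treg against Tconv and 1 in the average over strains (Uqcrfs1, -0.27, adjusted p = 0.0293), against 6.81% and 10.6% of all genes. In B6g7 the arrays numbered 1 and 3 correlated between Treg and Tconv and those numbered 2 did not. There the block called 0, against 6.38% of all genes. Between NOD and B6g7 Tconv, where the arrays numbered 2 also did not correlate, the block added Uqcrb (-0.35, adjusted p = 0.0336). In that comparison the share of all genes called went from 3.05% to 4.96%. Averaging all probe sets of a gene called 1 member in NOD Treg against Tconv (Cox5a, -0.32, adjusted p = 0.0372), against 4.99% of all genes, and 4 between strains in Treg with Ndufc2 added, against 3.59%. Array weights called 2 in B6g7 Treg against Tconv (Cox6b2 and Cox6c), 5 in the average over strains and 6 between strains in Tconv, while 9.16%, 13.2% and 4.96% of all genes were called. The cause was not tested. Fitting only the groups compared called 1 between strains in Treg (Ndufs5), with fewer arrays to estimate the spread, against 2.12% of all genes. Leaving out 1 array gave 1 to 2 members between strains in Tconv, 1 to 3 in Treg and 0 in each comparison of Treg with Tconv. The median member difference ran from 0.01 to 0.10 in B6g7 and from -0.10 to 0.01 in NOD over these fits, positive in NOD only without NOD Treg array 1, and it was 0.03 in NOD with quantile normalization.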

Other observations

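Among the mitochondrial ribosomal proteins, which build the machinery for the mitochondrially encoded subunits, 58 of 76 genes (9877 of 18193 over all genes) had a negative average difference between Treg and Tconv, with a median of -0.07, against -0.01 over all genes, and 3 were called lower by limma (Mrps28, Mrps18b and Mrpl58), a share of 3.95% near the 3.03% of all genes called lower. The carriers and import proteins had 16 of 18 genes negative, with a median of -0.09 and 0 called, against 7.5% of all genes called. Of the 18, 3 had an unadjusted p under 0.05, a share like the 16.5% of all genes.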
